A study of Danio rerio with 2 samples.

Results

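The aquaporin water channel genes of the zebrafish (Danio rerio) were described in dissected hearts at 96 hours post fertilisation. The members were chosen by symbol, as 10 named genes, with earlier results of these data known, so their ratios are a description and carry no test. Of the 10 genes, 9 matched 1 row each among the 32057 genes of the count table, and aqp9a matched none and is not analysed here. RNA came from fish with the foxc1a allele nju18 (1 library) and from wild-type TU fish (1 library), and foxc1a encodes a forkhead transcription factor. The sources used here give no zygosity, no effect of the allele on the transcript and no number of hearts behind a library. With 1 library per genotype there is no replicate check, and every difference below compares these libraries rather than the genotypes. The labels' directions are used, since the targeted gene did not check them. foxc1a had 798 reads under the mutant label and 629 under the wild-type label. After the scaling described below its ratio was 1.78, short of the 2-fold rule used below. The libraries are called the nju18 and TU libraries.

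Aquaporins are membrane proteins that let water cross along an osmotic gradient. The classical members carry mainly water, and the aquaglyceroporins (the aqp3, aqp7, aqp9 and aqp10 groups) also carry glycerol and other small solutes. The aqp8 group also conducts ammonia and hydrogen peroxide in mammals, and the aqp11 and aqp12 group sits largely in internal membranes. In blood vessels and heart of vertebrates the best known member is AQP1, made by endothelium and red cells, while most other members are known from skin, kidney, gut, liver, pancreas, brain or lens.

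The aqp8 genes were the members with the largest differences, all higher in the nju18 library, and aqp9b was lower there. The most abundant members, aqp3a and aqp1a.1, were nearly level. Levels are CPM (reads per 1000000 counted reads) after TMM scaling, a trimmed-mean correction for differences in library make-up. A gene is called higher or lower where its log2 ratio of CPM, with 1 CPM added to each, was at least 2-fold and it reached 5 CPM in either library. By that rule 3 members were higher, against 9.61% of all 12259 genes at that level, and 1 member was lower, against 11.1%. The other members at that level were the 2 nearly level genes, and 3 members (aqp12, aqp1a.2 and aqp4) did not reach 5 CPM. The median log2 ratio was 0.06 over the 9 members with a row and 1.02 over the 6 at 5 CPM or more, beside 0.04 over all genes at that level. aqp8a.2 and aqp8b reached 5 CPM only in the nju18 library, with 2.34 and 3.34 CPM in the TU library. Their calls and the median of 1.02 thus rest on a filter passed in the library where they were high. The same filter was applied to all genes.

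**Figure D1:**
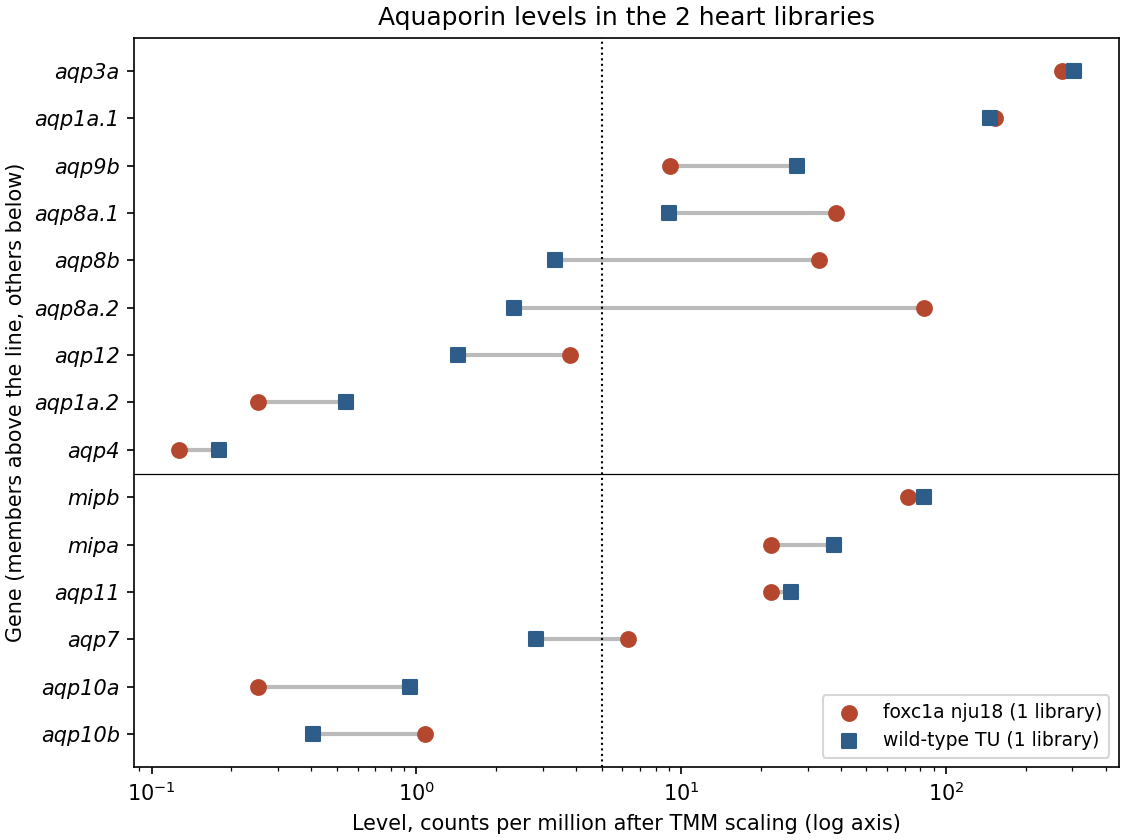
Level of each aquaporin gene in CPM after TMM scaling on a log axis, 1 point per library (circle, foxc1a nju18; square, wild-type TU), with members above the horizontal line, the other aquaporin genes below it and the 5 CPM filter as a dotted line. The points of aqp8a.2 lie farthest apart, at 82.8 and 2.34 CPM, and aqp3b, with no read in the nju18 library, is not drawn.

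aqp8a.2 (ENSDARG00000071592), the second of a tandem duplicate of zebrafish aquaporin 8a, had 1308 reads in the nju18 library and 52 in the TU library. Its level was 82.8 against 2.34 CPM, a ratio of 35.3, with an exact 95% Clopper-Pearson interval of 26.8 to 47.5 that covers counting error only. Its log2 ratio was 4.65, and of the 12259 genes at 5 CPM or more only 2 had a larger one. The gene was thus below 5 CPM in the TU library and far above it in the nju18 library.

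aqp8b (ENSDARG00000089749), the remaining aquaporin 8 copy, lies at a separate locus. It had 523 reads against 74, or 33.1 against 3.34 CPM. Its ratio was 9.92, with a counting interval from 7.77 to 12.8. Its log2 ratio of 2.98 was exceeded by 19 genes. The first tandem duplicate, aqp8a.1 (ENSDARG00000045141), had 607 reads against 199, or 38.4 against 8.97 CPM. The ratio of 4.28 had a counting interval from 3.64 to 5.05, and 182 genes had a larger log2 ratio than its 1.98. All 3 aqp8 genes were therefore higher in the same library, by sizes whose counting intervals do not overlap one another. Summed, they reached 154 CPM in the nju18 and 14.7 CPM in the TU library, 10.5 times higher (counting interval 9.38 to 11.9).

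The order within the aqp8a duplicate differed between the libraries. aqp8a.2 made up 68.3% of the reads of the duplicate in the nju18 library (1308 of 1915, exact interval 66.2 to 70.4%). In the TU library it made up 20.7% (52 of 251, exact interval 15.9 to 26.3%). Per length, in the deposited FPKM, aqp8a.2 stood at 1.17 times aqp8a.1 in the nju18 library, whereas aqp8a.1 stood at 7.04 times aqp8a.2 in the TU library. This share does not depend on the scaling between libraries. The sources used here do not say how reads that fit several places were counted, so the division of reads between the duplicates is uncertain.

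aqp9b (ENSDARG00000053480) is an aquaglyceroporin gene. Its mammalian relative AQP9 is known from liver and white blood cells. It was the member in the opposite direction, with 143 reads against 608 and 9.05 against 27.4 CPM. The ratio was 0.330 (counting interval 0.273 to 0.397), or 3.03 times lower in the nju18 library, with a log2 ratio of -1.50. Of the genes at 5 CPM or more, 602 had a smaller log2 ratio, so the difference of aqp9b was less extreme among all genes than those of the aqp8 genes.

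**Figure D2:**
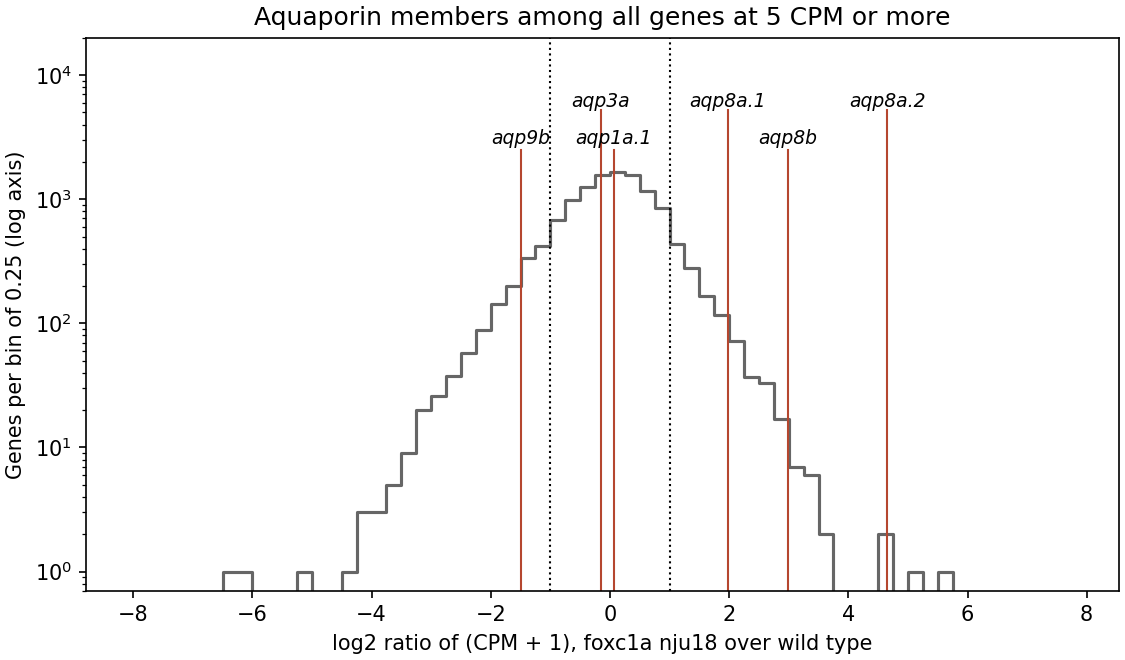
Number of genes at 5 CPM or more per bin of log2 ratio, on a log axis, with a vertical line at each of the 6 aquaporin members at that level and dotted lines at 2-fold. aqp3a and aqp1a.1 sit in the centre of the distribution, aqp9b left of the 2-fold line, and aqp8a.2 at 4.65 near the right end.

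aqp3a (ENSDARG00000003808), an aquaglyceroporin gene whose mammalian relative is abundant in epidermis and the kidney collecting duct, had the most reads of the members. It had 4308 reads against 6733, or 273 against 304 CPM. Its ratio was 0.898, with counting limits of 0.865 and 0.934. aqp1a.1 (ENSDARG00000023713), a classical water channel gene, had 2412 reads against 3246, or 153 against 146 CPM. Its ratio was 1.04, and its counting interval held 1 (lower limit 0.989). The log2 ratio of aqp1a.1 was 0.06 and changes sign to -0.23 with total-count scaling, under which that of aqp3a moved from -0.15 to -0.44. Neither gene passed the 2-fold rule under either scaling.

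The 3 remaining members were rare. aqp12 (ENSDARG00000043279), whose mammalian relative is known from pancreatic acinar cells, had 60 reads against 32, or 3.80 against 1.44 CPM. Its ratio was 2.63 (counting interval 1.69 to 4.18) and its log2 ratio, with 1 CPM added, 0.97. aqp1a.2 (ENSDARG00000091027), the tandem partner of aqp1a.1, had 4 reads against 12, and its ratio of 0.468 had counting limits of 0.110 and 1.54. aqp4 (ENSDARG00000010565), the water channel of glial end-feet in mammals, had 2 reads against 4, and its ratio of 0.702 had counting limits of 0.0635 and 4.90. No difference of aqp1a.2 or aqp4 was detectable at this depth.

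Per length the same 2 genes led in both libraries, and the order below them was not the same. In the TU library the deposited FPKM was 186 for aqp3a and 113 for aqp1a.1, then 11.9 for aqp9b, 9.65 for aqp8a.1 and 3.70 for aqp8b. The lowest members there were aqp12 at 1.61, aqp8a.2 at 1.37, aqp1a.2 at 0.718 and aqp4 at 0.118 FPKM. Counting intervals of neighbours in this order overlapped for aqp9b and aqp8a.1, for aqp12 and aqp8a.2, and for aqp8a.2 and aqp1a.2. In the nju18 library aqp3a stood at 137 and aqp1a.1 at 96.2 FPKM, followed by aqp8a.2 at 39.6, aqp8a.1 at 33.8 and aqp8b at 30.0. There aqp12 had 3.46, aqp9b 3.21, aqp1a.2 0.275 and aqp4 0.0676 FPKM. Neighbours with overlapping intervals in that library were aqp8a.1 and aqp8b, aqp12 and aqp9b, and aqp1a.2 and aqp4. aqp8a.2 thus stood at place 7 of the 9 members in the TU library and at place 3 in the nju18 library, and aqp9b at places 3 and 7.

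The share of all reads taken by the family was nearly level while its make-up differed. The 9 members together took 9367 reads, 0.0536% of the nju18 library (exact interval 0.0525 to 0.0547%), and 10960 reads, 0.0547% of the other (0.0536 to 0.0557%). Of these member reads the aqp8 genes took 26.0% in the nju18 library (exact interval 25.1 to 26.9%) and 2.97% in the TU library (2.66 to 3.30%). aqp3a took 46.0% against 61.4%, and aqp1a.1 25.7% against 29.6%. The share of aqp9b was 1.53% against 5.55% (exact intervals 1.29 to 1.80% and 5.13 to 5.99%). With TMM scaling the summed members were at 593 against 494 CPM, a ratio of 1.20 that becomes 0.981 with total-count scaling, so the sum has no firm direction.

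**Figure D3:**
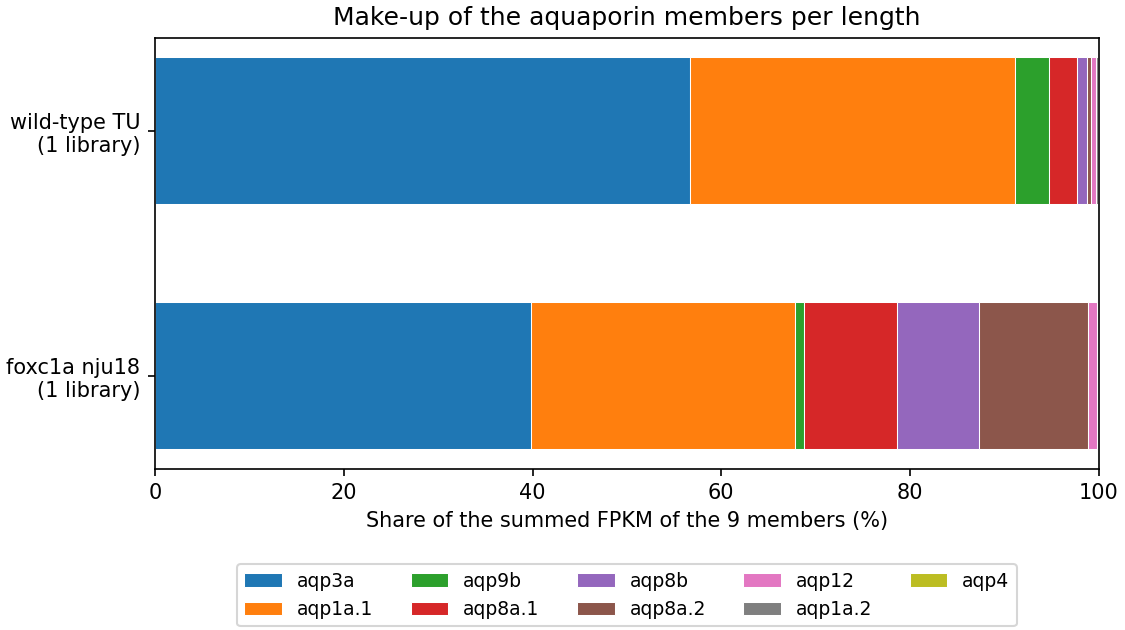
Share of the summed deposited FPKM of the 9 members taken by each gene, in percent, with 1 bar per library. aqp3a and aqp1a.1 hold 56.7% and 34.4% in the TU library and 39.8% and 28.0% in the nju18 library, where the aqp8 genes together hold 30.1%, against 4.49% in the TU library.

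The remaining aquaporin genes with a row, taken from a list of further symbols of the family, had smaller log2 ratios than the aqp8 genes. None of the 4 that reached 5 CPM was called in either direction with TMM scaling and 1 CPM added. Their calls under other settings are not given here. aqp7, another aquaglyceroporin gene, had 99 reads against 63 (6.27 against 2.84 CPM). Its ratio was 2.21 (counting interval 1.59 to 3.08) and its log2 ratio 0.92, just short of the rule. aqp11, a gene of an internal-membrane aquaporin, had 21.8 against 26.0 CPM. mipa and mipb, the lens fibre aquaporin genes, had 21.8 against 37.7 CPM and 72.1 against 82.5 CPM, with log2 ratios of -0.76 and -0.19. The intestinal-type genes were rare, aqp10b with 17 reads against 9 and aqp10a with 4 against 21, and aqp3b had 0 reads against 4. The aquaglyceroporin genes therefore did not share 1 direction: aqp7 and aqp10b had positive log2 ratios, and aqp9b, aqp3a and aqp10a negative ones. Of these only aqp9b was called, and aqp10a and aqp10b had few reads. No direction of aqp3b was detectable, as its ratio had counting limits of 0 and 2.13.

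In the authors' deposited table, built on counts divided by a size factor, the same 4 members were called. Their table called 3 members higher, against 4.24% of its 23256 genes, and 1 lower, against 7.63%. The authors' deposited table lists aqp8a.2 with a log2 fold change of 5.11 and a false discovery rate of 0, aqp8b with 3.28 and 6.83e-10, and aqp8a.1 with 2.06 and 0.000438. It gives aqp9b a log2 fold change of -1.63 with a false discovery rate of 0.0357, which would not pass a threshold of 0.01. The other 5 members had a false discovery rate from 0.215 (aqp12) to 0.983 (aqp3a) in the authors' deposited table. These calls come from the same 2 libraries and give no replicate check.

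The genes next to the called members did not share their direction as a group. Gene order was taken from RefSeq on assembly GRCz12tu, which is not the build named for the reads, so no coordinates are given, and these neighbours were chosen after values had been seen. The aqp8a duplicate lies beside a cluster of embryonic globin genes. On the globin side, hbae5 had 27 reads against 85, hbbe2 166 against 519, hbbe3 22 against 4 and hbae4 9 against 64. The log2 ratio of hbbe2 was -1.08, opposite to those of aqp8a.2 (4.65) and aqp8a.1 (1.98). That of hbbe3, which did not reach 5 CPM, was 1.02, in the same direction as theirs. On the other side, lcmt1, a methyltransferase gene that did not reach 5 CPM, had 70 reads against 47 (log2 ratio 0.80). Around aqp8b, the Polycomb gene cbx8a had 26.5 against 19.4 CPM and arhgap17b 33.4 against 23.6 CPM, with log2 ratios of 0.43 and 0.48 beside 2.98 for aqp8b. A gene one step further, slc5a11, of the sodium-coupled solute transporters, had 6.27 against 2.53 CPM (log2 ratio 1.04). It was called higher, as aqp8b was. Next to aqp9b, aldh1a2, which makes retinoic acid, had 17.5 against 10.6 CPM and lipca, the hepatic lipase gene, 1 read against 4.

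**Figure D4:**
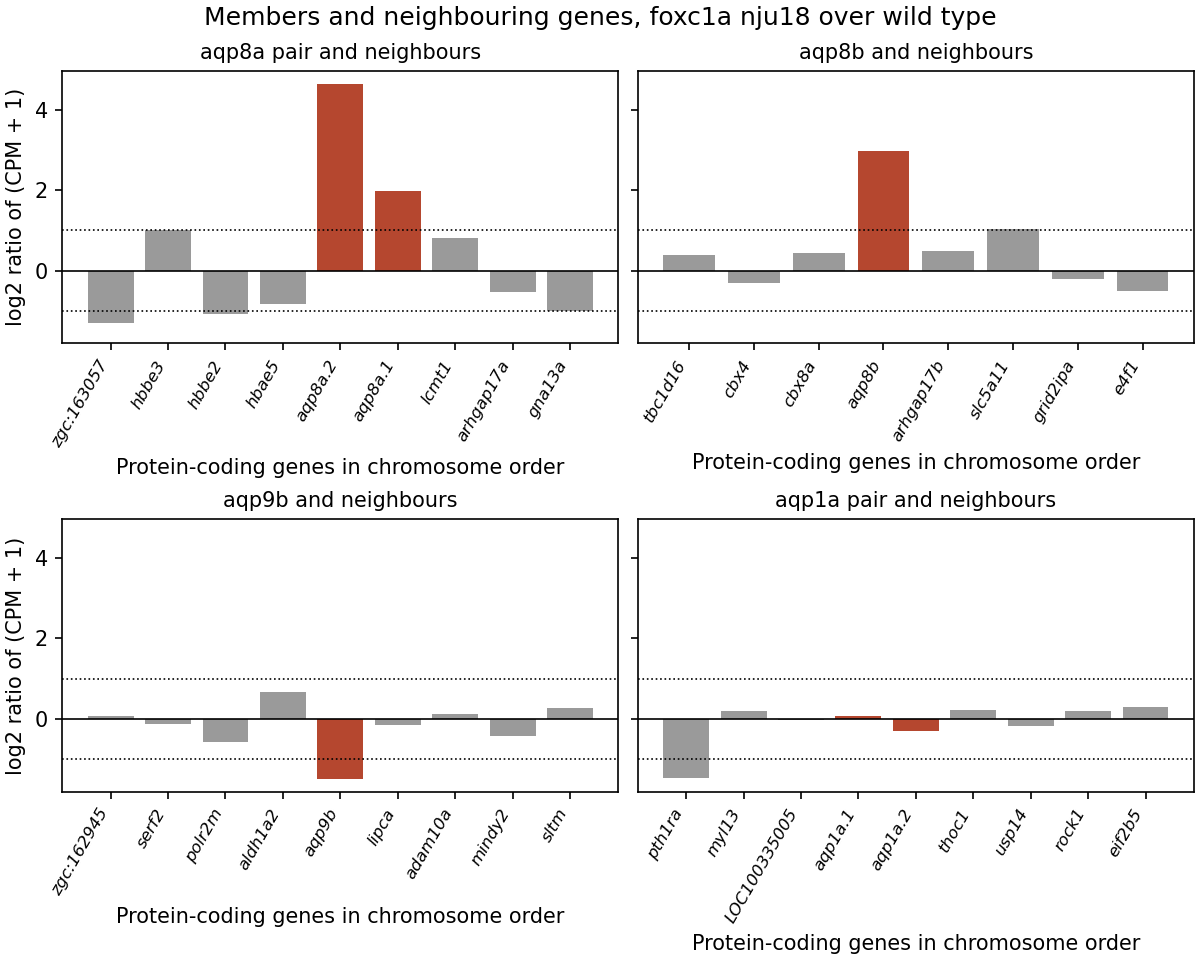
Log2 ratio of CPM with 1 added, foxc1a nju18 over wild type, for aquaporin members (red) and up to 4 protein-coding genes on each side (grey) in chromosome order, with dotted lines at 2-fold. The red bars of aqp8a.2 (4.65), aqp8a.1 (1.98), aqp8b (2.98) and aqp9b (-1.50) exceed in size those of every neighbour shown in their panels.

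Genes whose pair of levels lay nearest to those of the extreme members were found over the 2 libraries alone, so likeness here says only that the levels are alike. Nearest to aqp8a.2, by distance on the log2 scale, were the complement gene c4b at 0.81 (52.9 against 3.74 CPM), cyp8b1, a bile acid synthesis gene, at 1.09 (54.4 against 5.28 CPM), and ccdc103, a gene of motile cilia, at 1.25 (46.5 against 5.41 CPM). Only 1 gene with a name lay within 1 log2 unit of aqp8a.2. Around aqp9b, 1010 genes did, the nearest being il34, a cytokine gene (8.93 against 26.7 CPM), scinla, an actin-severing gene, and dlx4a, a homeobox gene.

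Genes that act with aquaporins were called in small numbers, but the lists are short. Over all genes at 5 CPM or more, 9.61% were higher and 11.1% lower. Of 11 glycerol handling genes at 5 CPM or more, 3 were called higher and 0 lower (median log2 ratio 0.33). The higher ones were dgat1a (26.2 against 5.37 CPM), which completes triglyceride synthesis, and the glycerol phosphate dehydrogenase genes gpd1b (23.0 against 10.4 CPM) and gpd1c (90.5 against 43.8 CPM). With total-count scaling, 5 CPM added or the deposited FPKM only 1 of the 3 calls was left, dgat1a, and the median was 0.06 with total-count scaling. Of 16 genes for cell volume control and osmolyte uptake, 0 were higher and 2 lower (median -0.31). These were slc6a6b, a taurine transporter gene (8.99 against 19.9 CPM), and lrrc8aa, a subunit gene of the volume-regulated anion channel (5.19 against 13.0 CPM). With 5 CPM added 0 were lower. Neither gene reached 20 CPM, so a 20 CPM filter removed both by construction. Of 8 genes of the complex that anchors AQP4, 1 was higher and 0 lower (median 0.39): dtnba, a dystrobrevin gene, at 138 against 65.7 CPM, which was not called with total-count scaling. dmd, the dystrophin gene, had 316 reads against 285, a ratio of 1.56.

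Both libraries held reads of markers of other tissues, whose levels also differed between the libraries. In bulk RNA, fewer cells of a type and less RNA per cell cannot be told apart. Cardiomyocyte markers were present, with 10 of 10 matched genes at 5 CPM or more. Of these 6 were higher and 0 lower, beside 9.61% and 11.1% of all genes at that level. Their summed level was 25569 against 8683 CPM. myh7, a ventricular myosin gene, led them with 6535 against 621 CPM. Scaling bears on all of these counts: with TMM 1178 genes were higher and 1358 lower (46.5% higher), and with total-count scaling 702 and 2166 (24.5% higher), where the median of all genes was -0.26.

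Markers of gut and liver, organs in which mammalian AQP8 is known, had higher summed levels in the same library as the aqp8 genes. Of 11 intestine markers at 5 CPM or more, 6 were higher and 2 lower (median 1.36), beside 9.61% and 11.1% of all genes at that level. Their summed level was 1646 against 620.5 CPM. anxa2b, an annexin gene, had 26.7 against 2.07 CPM, cdx1b, an intestinal homeobox gene, 56.9 against 10.9 CPM and cdh17, an adhesion gene also on the pronephros list, 227 against 49.2 CPM. fabp6, an ileal bile acid binding protein gene, went the other way with 4.62 against 70.4 CPM. Of 8 liver markers at that level, 3 were higher and 0 lower (median 0.90), at a summed 394 against 182 CPM. fabp10a, the liver fatty acid binding protein gene, had 34.7 against 10.6 CPM, cp (ceruloplasmin) 158 reads against 38, and tfa (transferrin) 192 against 86.3 CPM. The summed levels were 2.65 and 2.16 times higher, respectively, beside 10.5 times for the aqp8 genes. Higher sums were not particular to gut and liver. The ratio of sums was 2.94 for cardiomyocyte, 2.36 for pronephros and 2.26 for keratinocyte markers. Other lists had lower sums, among them exocrine pancreas (0.456), red cell (0.338) and neuron and photoreceptor markers (0.152). The liver marker ahsg1 had 0 reads in the nju18 library and 4 in the TU library, too few to show a difference (counting limits of the ratio 0 and 2.13). The part of gut or liver RNA in the aqp8 values was not tested.

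Markers of the cells in which aqp3a and aqp1a.1 are known went several ways. Of 9 keratinocyte markers at 5 CPM or more, 3 were higher and 1 lower (median 0.15), beside 9.61% and 11.1% of all genes at that level. Their summed level was 17428 against 7728 CPM. cyt1l, a keratin gene, had 3441 against 870.2 CPM, while cldne, a claudin gene of skin, had 192 against 439 CPM. Of 12 ionocyte markers, 0 were higher and 2 lower (median -0.69), at a summed 437 against 773 CPM, with atp6v1aa at 0 reads in both libraries. The lower ones were the ammonium transporter genes rhcga (22.7 against 254 CPM) and rhcgb (7.60 against 45.5 CPM), and 6 were lower with total-count scaling and 5 with the deposited FPKM. Of 6 red cell markers, 0 were higher and 4 lower (median -1.25), at a summed 847 against 2504 CPM, among them hbae3 (270.2 against 935 CPM) and the anion exchanger gene slc4a1a (88.6 against 237 CPM). The 12 endothelial and endocardial markers were all at 5 CPM or more, with 0 called in either direction and a median of 0.17 that becomes -0.11 with total-count scaling. The keratinocyte median likewise becomes -0.14. The part of each cell type in the aqp3a and aqp1a.1 values was not tested.

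Markers of the tissues of the other members went both ways, and several of the counts are small. The shares over all genes at 5 CPM or more were 9.61% higher and 11.1% lower. aqp12 had 3.80 against 1.44 CPM and was not called, as it did not reach 5 CPM. Exocrine pancreas markers had a lower summed level in the nju18 library. Of 6 such markers at 5 CPM or more, 0 were higher and 4 lower (median -1.51), at a summed 37.7 against 82.6 CPM. The lower ones included the trypsin gene prss1 (6.02 against 18.8 CPM), and 2 were lower with 5 CPM added. No exocrine pancreas marker reached 20 CPM, so a 20 CPM filter left none to call. cpb1 had 0 reads against 17, and ctrb1 had 0 in both libraries. cpa1 had 0 against 2, too few to show a difference. Of 3 myeloid markers at that level, 0 were higher and 1 lower, the neutrophil peroxidase gene mpx (7.16 against 18.1 CPM). It was not called with 5 CPM added, and it did not reach 20 CPM, so a 20 CPM filter removed it by construction. The others were the scavenger receptor gene marco (6.59 against 3.65 CPM) and lcp1, a leukocyte actin-bundling gene (15.1 against 17.8 CPM). Liver markers, of the other organ in which AQP9 is known, had 3 of 8 higher and 0 lower while aqp9b was lower. lyz had 0 reads in both libraries, and coro1a had 0 against 4, too few to show a difference. Of 9 pronephros markers, 1 was higher and 2 lower, the latter including the podocyte gene nphs1 (0.317 against 6.36 CPM). With 5 CPM added 1 pronephros marker was lower. The 2 lower ones did not reach 20 CPM, so a 20 CPM filter removed them by construction. slc12a1 had 0 reads in both libraries. Of 9 glia markers, 1 was higher and 3 lower (median -0.58), with gfap at 41.7 against 19.9 CPM (not called with total-count scaling) and slc1a2b, a glutamate transporter gene, at 33.1 against 88.2 CPM. Neuron and photoreceptor markers had 10 of 13 lower and 0 higher (median -2.27), at a summed 453 against 2982 CPM. Among them were opn1sw1 (90.2 against 1087 CPM) and rho (73.0 against 606 CPM). Lens markers had 1 of 7 in each direction, with 0 higher under total-count scaling, at a summed 3018 against 2873 CPM. The lower one was crygm2d1 (19.9 against 403 CPM) and the higher one lim2.1 (12.6 against 5.64 CPM). The part of these tissues in the values of aqp12, aqp9b, aqp4, mipa and mipb was not tested.

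**Figure D5:**
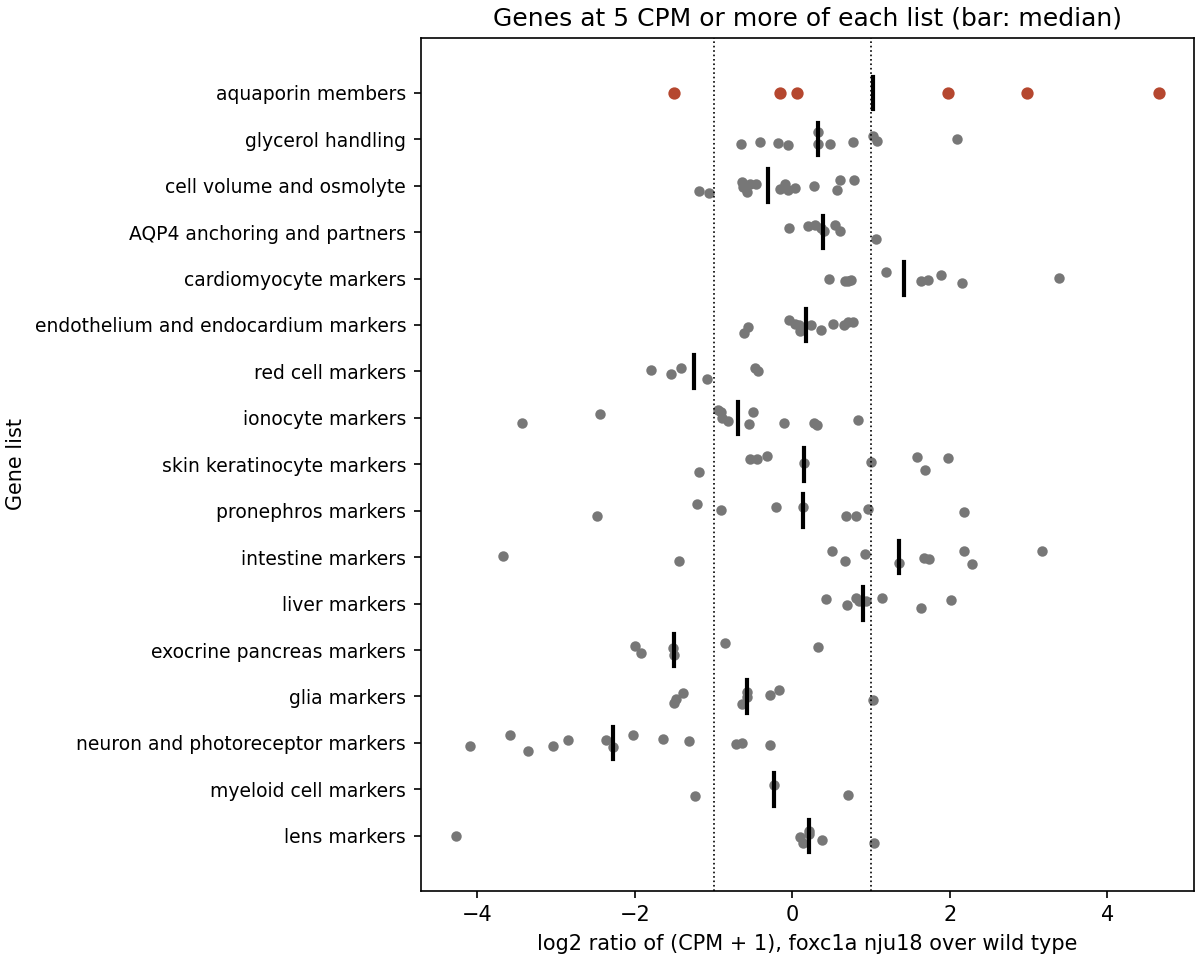
Log2 ratio of CPM with 1 added, foxc1a nju18 over wild type, for each gene at 5 CPM or more of the aquaporin members (red) and of 16 other gene lists (grey), with the median of each list as a bar and dotted lines at 2-fold. The aquaporin members spread from -1.50 to 4.65, the intestine and cardiomyocyte markers lie mostly to the right and the neuron and photoreceptor markers to the left.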

How the data were processed

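RNA sequencing was done on 1 heart library per genotype, grouped by the genotype label. GRCz11, featureCounts, HISAT2, Trimmomatic and bcl2fastq are listed in the submitters' processing notes, without versions or settings. Raw counts by Ensembl gene were deposited, 17467109 reads for nju18 and 20049851 for TU. The deposited FPKM equalled count over total count and over 1 length per gene, with the same length in both libraries within 0.01 bases for 100.0% of 21662 genes. The authors' deposited comparison table, named for EBSeq, holds a normalised signal (count over a size factor of 0.854 or 1.17), its ratio as a fold change, the log2 of that ratio, and a false discovery rate, used here as a q-value. Its EBSeq settings are not given in the sources used here.

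Counts were scaled with TMM factors of 0.904 and 1.11 (edgeR 4.0.16, R 4.3.3). Intervals are exact (scipy 1.17.1) and use the conditional binomial of the reads for ratios and Poisson limits for FPKM. They cover counting error only, as each genotype has 1 library. Reads are not independent molecules, so the intervals may be too narrow even for that error. In place of a test, a 2-fold rule on log2 of CPM plus 1 was applied to genes that reached 5 CPM in a library. The log2 scale with 1 CPM added understates differences of low genes. Scripts were tested on simulated data. Members, lists, tests and alternatives were chosen with earlier results of these data known. Text names all members, the other aquaporin genes, up to 4 genes with the largest absolute log2 ratio per list, and the 3 genes nearest to each extreme member, and, chosen after their values were seen, neighbours and markers at 0 reads. Of 220 list symbols, 13 matched no row. Alternatives were size factors from DESeq2 1.42.0, total-count scaling, the deposited FPKM, and other added constants, filters and fold rules. A planned comparison of promoter and protein sequences was not run.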

Additional observations from a re-analysis of the deposited data

How the results depend on the processing

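The 3 higher aqp8 genes and the lower aqp9b kept their calls under total-count scaling, DESeq2 size factors, 0.25 or 5 CPM added, no filter, a 20 CPM filter, the deposited FPKM and a 1.5-fold rule. A 4-fold rule left 2 members higher and 0 lower, and a false discovery rate threshold of 0.01 in the authors' deposited table left 3 members higher and 0 lower. The shares of all genes at these stricter thresholds are not given here, so these counts have no background beside them. Over the 6 scalings and added constants the log2 ratio was at least 3.58 for aqp8a.2, and ran from 2.19 to 3.22 for aqp8b, 1.64 to 2.07 for aqp8a.1, -1.77 to -1.21 for aqp9b and 0.45 to 1.26 for aqp12. The median log2 ratio of members (1.02) was 0.74 with total-count scaling and with the deposited FPKM, 0.85 with 5 CPM added and 0.06 with no filter, which adds 3 members. Over all genes, the deposited FPKM gave 549 higher and 1541 lower. Of the genes on the other lists, whose numbers at 5 CPM or more are given with each list, 24 were higher and 32 lower. Over all genes at that level 9.61% were higher and 11.1% lower. The pooled number of list genes is not given here, so the counts of 24 and 32 cannot be read against those shares. For the list genes a 1.5-fold rule gave 46 higher and 46 lower, and a 4-fold rule 7 higher and 14 lower. The shares of all genes just stated are for the 2-fold rule, and those under the other fold rules are not given here. The medians of the endothelial, keratinocyte, pronephros and lens lists changed sign with total-count scaling (to -0.11, -0.14, -0.11 and -0.08). The cause of these shifts was not tested beyond what each setting changes by construction. No paired analysis was possible because each genotype has 1 library. Leaving out a replicate was not possible for the same reason. At this depth aqp4 and aqp1a.2, with 2 to 12 reads per library, have counting intervals too wide to show a 2-fold difference.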
